A study of Mus musculus with 22 samples.

Results

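The comparison described here is 12 h of doxycycline without an E2F1 construct. It sets the NIH/3T3 line with an empty inducible construct (empty vector, EV) after 12 h of the drug against the same line at 0 h. It takes 4 of the 22 RNA libraries of the series, 2 in each group, chosen by their labels, and all 11208 genes of the deposited table. NIH/3T3 is an established mouse embryo fibroblast line. The study brought cells to rest in low serum and asked how E2F1, a transcription factor that drives genes of DNA replication, brings resting cells back into the cell cycle, and doxycycline in the EV line is its drug control. The 0 h group (EV, replicates 1 and 2) had 48 h in medium with 0.25% serum and no doxycycline. The 12 h group (EV, replicates 1 and 2) had the same starvation and then 500 ng/ml doxycycline for 12 h. The 2 h and 6 h EV groups were treated in the same way for shorter times, and the E2F1 line at 0 h and 12 h carries the same kind of construct with E2F1 in it. A further EV group, set beside these near the end, had the same starvation and then 12 h in 10% serum without doxycycline. The drug and the 12 further hours in culture differ together between the groups compared, so their effects cannot be told apart. The labels do not say whether either line is 1 clone or a pool, which parts the empty construct holds, or whether replicates are separate cultures. The p-values therefore measure only a spread between libraries, which the fit took from all 22 libraries and not from the 4 compared alone.

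Doxycycline is a tetracycline antibiotic that is used to switch on inducible constructs, and it also binds the ribosomes of mitochondria, which descend from those of bacteria, and slows the translation of the proteins encoded in mitochondrial DNA. Cells can answer a loss of mitochondrial function with the integrated stress response, in which the factor ATF4 raises genes of amino acid synthesis and transport. Genes of DNA replication are driven by E2F factors, and many genes of mitosis are held down in resting cells by the DREAM complex through a promoter element named CHR. Genes of sterol synthesis are driven together by SREBP factors, which are released when membranes hold little cholesterol.

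Deposited values are counts that the authors scaled between libraries and rounded, called normalized counts below. Totals per library were between 34680926 and 35600629 in the 4 libraries, and the read depth behind them is unknown. Of 8730 genes with a mean of at least 500 over the 22 libraries, 322 (3.69%) differed at least 1.5-fold between the 0 h replicates and 135 (1.55%) between the 12 h replicates. The share was larger only in the EV group with 6 h of serum (4.44%). In the other groups of the series it ran from 0.332% to 2.46%. The spread taken from all 22 libraries may therefore be too small for the 0 h group. The line marker Ddx3y stood at 9 and 4 normalized counts at 0 h and at 9 and 4 at 12 h, against 580 and 521 in the E2F1 line at 0 h. It stood at 103 and 71 in the EV 2 h libraries and at 31 and 18 at 6 h, so the 2 h libraries, and to a lesser degree those of 6 h, stand apart from the groups compared. Of 12 fibroblast markers, 11 were measured and 0 passed limma's test (2 at an unadjusted p under 0.05), with summed levels of 975867 and 880610 at 0 h and 984146 and 898338 at 12 h. Of 28 markers of other cell types (epithelial, endothelial, leukocyte, muscle and adipocyte), Csf1r and Cd14, both of the leukocyte list, had values, which summed to 261 and 368 at 0 h and to 191 and 152 at 12 h. The table holds no gene with a mean under 99.6 over all libraries, so markers without values were not analysed here.

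The genes of G2 phase and mitosis were the list with the largest share of lower genes at 12 h, and the promoters of its 4 called members of smallest p are shown because the CHR element was searched in them. The lines give 150 bases upstream of the RefSeq start, 5′ to 3′ on the gene's own strand (GRCm38.p6), and for Plk1 and Racgap1 a stretch of 30 bases at the start. Capitals mark the CHR letters TTTGAA and the letters CCAAT or their reverse complement.
Nuf2, chr1:169531465-169531614, minus strand: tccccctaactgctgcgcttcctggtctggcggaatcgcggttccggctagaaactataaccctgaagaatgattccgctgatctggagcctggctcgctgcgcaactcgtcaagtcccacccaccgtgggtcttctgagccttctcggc
Plk1, chr7:122159285-122159434, plus strand: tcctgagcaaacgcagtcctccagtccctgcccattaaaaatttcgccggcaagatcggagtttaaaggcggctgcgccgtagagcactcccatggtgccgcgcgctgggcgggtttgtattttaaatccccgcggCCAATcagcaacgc
Plk1 CHR, chr7:122159453-122159482, plus strand: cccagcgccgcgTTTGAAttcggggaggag
Racgap1, chr15:99651657-99651806, minus strand: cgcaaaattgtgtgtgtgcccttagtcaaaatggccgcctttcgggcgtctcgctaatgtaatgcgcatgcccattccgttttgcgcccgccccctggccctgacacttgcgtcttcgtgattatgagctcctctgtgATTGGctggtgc
Racgap1 CHR, chr15:99651634-99651663, minus strand: ctggtgcgtgatTTTGAAccggatctggcg
Nek2, chr1:191821323-191821472, plus strand: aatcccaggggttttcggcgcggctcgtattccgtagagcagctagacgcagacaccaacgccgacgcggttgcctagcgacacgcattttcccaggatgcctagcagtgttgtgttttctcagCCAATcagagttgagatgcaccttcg
Counted from the start as +1, the first CHR base lay at +31 in Plk1 and at +6 in Racgap1. The first base of CCAAT lay at -14 in Plk1 and at -26 and +8 in Nek2, and its reverse complement began at -12 in Racgap1. In Nuf2 none of the letters searched was in the window of 300 bases (250 upstream and 50 downstream of the start). Over both strands of that window, TTTGAA was found in 45 of the 68 matched promoters of the mitosis list (66.2%) and in 1002 of 8609 promoters of the table's genes (11.6%). The CCAAT letters, which were added to the search after the values were seen, were in 72.1% and 39.9%, and also in 78.3% of the matched promoters of the sterol synthesis list and 61.5% of those of the recombination list. An E2F motif (TTTCCCGC or TTTGGCGC) was in 28.8% of the promoters of the G1/S and replication list and in 3.46% of all. A match of letters describes a promoter and is not a measured site.

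Between 0 h and 12 h, limma on log2(normalized count + 1) called 467 of 11208 genes at a Benjamini-Hochberg adjusted p of at most 0.05, which is 4.17%. Of these, 84 rose (0.749% of all genes) and 383 fell (3.42%), while the median change of all genes was 0.00. The spread in this fit came from all 22 libraries, and a fit of only the groups compared called 77 genes, 21 higher and 56 lower. A fall of at least 2-fold was seen in 158 of the 383, and a rise of that size in 12 of the 84. Of the 383 falls, 128 (33.4%) belonged to 3 cell cycle lists, of replication, recombination and mitosis, which hold 186 measured genes, and 0 of the 84 rises did. A further 19 falls were genes of sterol and fatty acid synthesis, and 199 falls and 71 rises were in none of the 30 lists. The lists are not complete, so the share of 33.4% counts listed cell cycle genes only. Falls outside the lists included Pclaf (log2 change -1.66), Esco2 (-1.75) and Cep55 (-1.53), which serve DNA replication or cell division. One library bears on most of these calls. The second 0 h library lay above the first in 359 of the 383 genes that fell and below it in 62 of the 84 that rose. Without it 26 genes were called, 15 higher and 11 lower, and without the first 0 h library 803 were. Without the first 12 h library 75 were called and without the second 321, and in each of these 4 fits a group of 1 library is assumed to vary like the others.

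**Figure D1:**
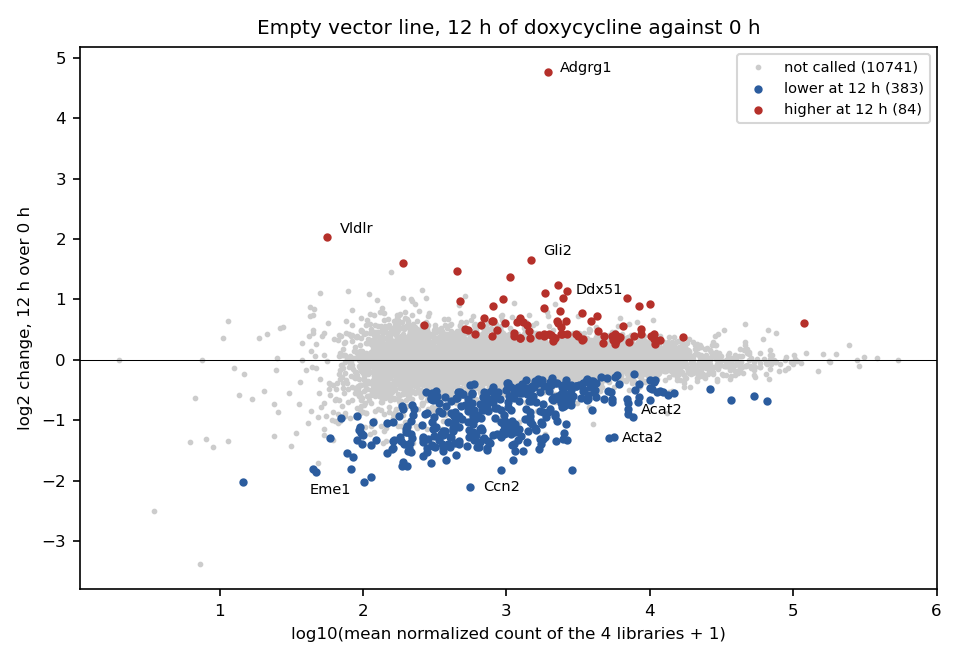
Change at 12 h against level for the 11208 genes of the table. The x axis gives log10 of the mean normalized count of the 4 libraries plus 1 and the y axis the fitted log2 change from 0 h to 12 h. Blue points are the 383 genes called lower, red points the 84 called higher and grey points the rest. Adgrg1 has the highest change, 4.77, and most called genes lie below 0.

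The genes called in all 4 fits that each leave out 1 library numbered 23, of which 13 were higher and 10 lower. The higher ones were Adgrg1, Gli2, Etl4, Gstm5, Klf4, Ddx51, C3, Sh3rf1, Lyrm4, Noc4l, Slc29a3, Map4k3 and Src. The lower ones were Eme1, Vip, Cdc6, Fancd2, Mcm5, Stil, Orc1, Acta2, Sertad4 and Acat2. Any other gene given below as risen or fallen at 12 h against 0 h lost its call without at least 1 of the 4 libraries, and 24 of the 467 calls were kept without the second 0 h library. Among the lower genes, 5 serve the start of replication or the repair of its forks: Cdc6 and Orc1 load the replicative helicase, Mcm5 is a subunit of it, and Eme1 and Fancd2 act on joined or crosslinked DNA strands.

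Among the rises, Adgrg1 (ENSMUSG00000031785.16, chromosome 8, 94974751 to 95014217), an adhesion G protein-coupled receptor, stood apart. It had 101 and 181 normalized counts at 0 h and 3536 and 3931 at 12 h. The groups were far apart, with a ratio of means of 26.5 and a log2 change of 4.77 (SE 0.21, adjusted p 1.59e-10 by limma, and at most 0.000165 over the planned and added settings). At 6 h it was already at 3410 and 3907, and at 2 h at 961 and 1069. The E2F1 line also gained Adgrg1 under the drug, from 181 and 278 to 1229 and 1456.

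Gli2 (chromosome 1, 118834132 to 119053619), a zinc finger factor that carries Hedgehog signals to genes, had 770 and 649 normalized counts at 0 h and 2388 and 2098 at 12 h. The change of 1.66 (SE 0.19) had an adjusted p of 0.000132 by limma and was between 1.54 and 1.78 with any 1 library left out. Gli2 was the 1 called gene among 15 measured of the Hedgehog list (6.67%, against 0.749% of all genes called higher), whose median change was 0.16. Etl4, with 547 and 626 at 0 h and 1282 and 1786 at 12 h, changed by 1.37 (adjusted p 0.000943). Klf4, a zinc finger factor of differentiation and arrest, went from 1268 and 1053 to 2996 and 2071, a change of 1.11 (adjusted p 0.000633). Sh3rf1, a scaffold of the JNK kinase cascade, went from 596 and 648 to 1305 and 1206, a change of 1.01. In these 4 genes every 12 h library was above every 0 h library, which the choice of largest rises required.

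The neighbours Ddx51 and Noc4l, both with roles in ribosome assembly, rose together. Ddx51, an RNA helicase, stood at 1632 and 1650 at 0 h and at 3329 and 3349 at 12 h, a rise of 1.02 on the log2 scale (SE 0.09, adjusted p 7.03e-06). Noc4l, a nucleolar factor of the small ribosomal subunit, stood at 1307 and 1294 at 0 h and at 2364 and 2357 at 12 h, a change of 0.86 (SE 0.09, adjusted p 4.49e-05). Replicates of these 2 genes differed by far less than the groups. They start back to back on chromosome 5, Noc4l on the minus strand up to 110653417 and Ddx51 on the plus strand from 110653451. The 33 bases between the starts are shown because both genes begin at them, a choice made after their values were seen.
Noc4l to Ddx51, chr5:110653418-110653450, plus strand: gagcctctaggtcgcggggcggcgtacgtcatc
At 6 h the log2 changes from the same 0 h libraries were 0.68 for Ddx51 and 0.56 for Noc4l. In the E2F1 line at 12 h Ddx51 changed by 0.04 (adjusted p 0.715) and Noc4l by 0.25 (adjusted p 0.0203), and the difference between the lines passed for Ddx51 (adjusted p 4.95e-06) and Noc4l (adjusted p 0.000527). Noc4l was the 1 called rise among 68 ribosome biogenesis genes, of which 5 fell (Nop56, Nop58, Nhp2, Dkc1 and Nop10). These shares were 1.47% higher and 7.35% lower, against 0.749% and 3.42% of all genes. Without the second 0 h library 0 of those 5 falls passed by limma, with 11 lower members of the list at an unadjusted p under 0.05.

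A further 4 of the largest rises were in Mmp9, C3, Fst and Gstm5. Mmp9, a gelatinase that degrades matrix, stood at 1453 and 1288 at 0 h and at 3425 and 3040 at 12 h (log2 change 1.24, adjusted p 0.00524). C3, the central complement protein, was at 4824 and 4333 and then at 8849 and 9759 (1.02, adjusted p 0.000633). Fst, which binds and blocks activin, was at 317 and 170 and then at 787 and 529 (1.47, adjusted p 0.00418). Gstm5, a glutathione transferase, was at 1620 and 1662 and then at 3141 and 4212 (1.15, adjusted p 0.000132). The largest rises were chosen from genes whose groups did not overlap, so separation in these 4 was fixed in advance. With any 1 library left out the change ran from 1.15 to 1.32 for Mmp9 and from 1.02 to 1.92 for Fst. Of 57 collagen and laminin genes, 2 rose (Thbs2 and Lamc1, 3.51% against 0.749% of all genes) and 0 fell, with a median of 0.09. Of 27 matrix proteases and inhibitors, 2 rose (Mmp9 and Mmp19, 7.41%) and 1 fell (Plaur, 3.7% against 3.42% of all genes).

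**Figure D2:**
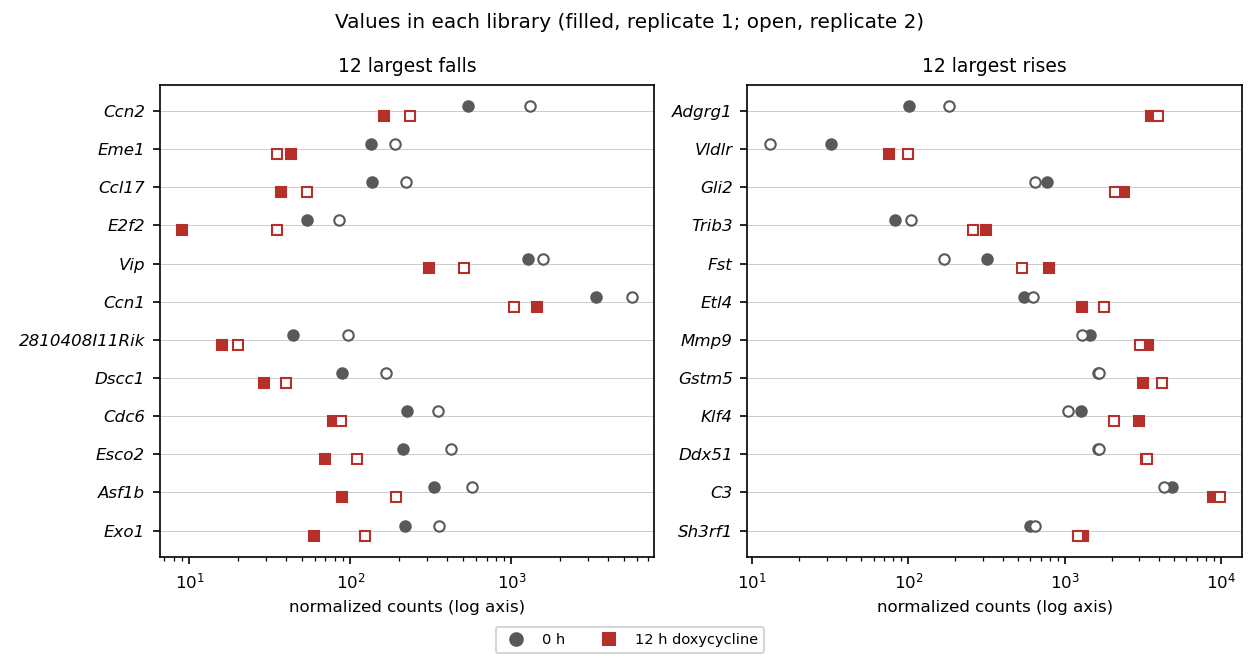
Values in each library for the 12 genes of largest fall and the 12 of largest rise among those that passed the test. The x axes give normalized counts on a log scale. Grey circles are the 0 h libraries and red squares the 12 h libraries, filled for replicate 1 and open for replicate 2. In each gene both squares lie on the same side of both circles, because only such genes were chosen. In each of the 12 falls the open circle, the second 0 h library, is the highest value.

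Genes of the G1/S transition and of DNA replication were lower in 51 of 70 measured (72.9%, against 3.42% of all genes), and in 70 of 70 the fitted change was below 0, as in 49.6% of all genes. Their median change was -0.80. When only the groups compared were fitted, 6 members passed by limma, with 59 lower at an unadjusted p under 0.05. Across the list the geometric mean level was 634 and 928 at 0 h and 406 and 460 at 12 h, so both 12 h libraries lay below both 0 h libraries. Cdc6, which loads the helicase at origins, stood at 226 and 351 at 0 h and at 78 and 87 at 12 h (log2 change -1.76, SE 0.21, adjusted p 0.000196). Mcm5 was at 1375 and 2035 and then at 479 and 720 (-1.51, adjusted p 0.000664). Orc1, of the origin recognition complex, was at 229 and 239 and then at 90 and 96 (-1.32, adjusted p 0.000847). These 3 passed with any 1 library left out. Rrm2, a subunit of ribonucleotide reductase, was at 785 and 1406 and then at 403 and 413 (-1.36, adjusted p 0.00418), and did not pass without the second 0 h library (adjusted p 0.142). E2f2, a member of the E2F family, was at 54 and 85 and then at 9 and 35 (-1.86, adjusted p 0.0284, and 0.392 without the first 12 h library). E2f1 itself stood at 1635 and 1655 at 0 h and at 1345 and 1635 at 12 h, overlapping values with a change of -0.15 (adjusted p 0.536). The list's count was 3 without the second 0 h library, 58 without the first, 12 without the first 12 h library and 39 without the second, with medians between -1.05 and -0.50.

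Recombination and crosslink repair genes were lower in 17 of 37 measured (45.9%, against 3.42% of all genes), with a median of -0.96. A fit of only the groups compared called 2 of them by limma, with 23 lower at an unadjusted p under 0.05. Eme1, the partner of the nuclease Mus81, stood at 135 and 190 normalized counts at 0 h and at 43 and 35 at 12 h (log2 change -2.02, SE 0.29, adjusted p 0.000943). Its annotation overlaps Lrrc59 and Mrpl27, so reads of those genes may be counted with it. Fancd2, of the crosslink repair pathway, was at 281 and 322 and then at 117 and 94 (-1.51, adjusted p 0.00139). Fancd2 had separate groups, while for Eme1 the choice of largest falls required them. With any 1 library left out the change ran from -2.26 to -1.77 for Eme1 and from -1.67 to -1.35 for Fancd2. The count of 17 was 2 without the second 0 h library, 22 without the first, 3 without the first 12 h library and 19 without the second.

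Genes of G2 phase and mitosis were lower in 60 of 79 measured (75.9%), with 79 of 79 changes below 0 and a median of -1.23, or a range from -1.66 to -0.25. The geometric mean level of the list was 796 and 1401 at 0 h, 629 and 1137 at 6 h and 389 and 558 at 12 h. Replicate 2 was above replicate 1 at each of these times, by ratios of 1.76, 1.81 and 1.43. In these bulk libraries fewer cycling cells and less mRNA in each cell cannot be told apart. Nuf2, a kinetochore protein that holds microtubules, stood at 509 and 834 at 0 h and at 195 and 245 at 12 h (log2 change -1.57, adjusted p 0.00349). Plk1, the polo kinase of mitotic entry, was at 907 and 1231 and then at 310 and 455 (-1.49, adjusted p 0.00349). Racgap1, which organizes the central spindle for cytokinesis, was at 2795 and 4279 and then at 1201 and 1602 (-1.32, adjusted p 0.00349). Nek2, a kinase that parts the centrosomes, was at 442 and 699 and then at 141 and 219 (-1.66, adjusted p 0.00418). Cdk1, the kinase of mitosis, was at 1882 and 3412 and then at 824 and 1317 (-1.28, adjusted p 0.0101). Of all 79 members 77 had both 12 h libraries below both 0 h libraries, as had 21.8% of all genes. When only the groups compared were fitted, 5 members passed by limma, with 77 lower at an unadjusted p under 0.05. Without the second 0 h library 0 members passed by limma, with a median of -0.77 and 53 at an unadjusted p under 0.05. Without the first 12 h library 0 passed as well, with a median of -0.94 and 65 at an unadjusted p under 0.05. Without the first 0 h library 77 passed and without the second 12 h library 53.

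**Figure D3:**
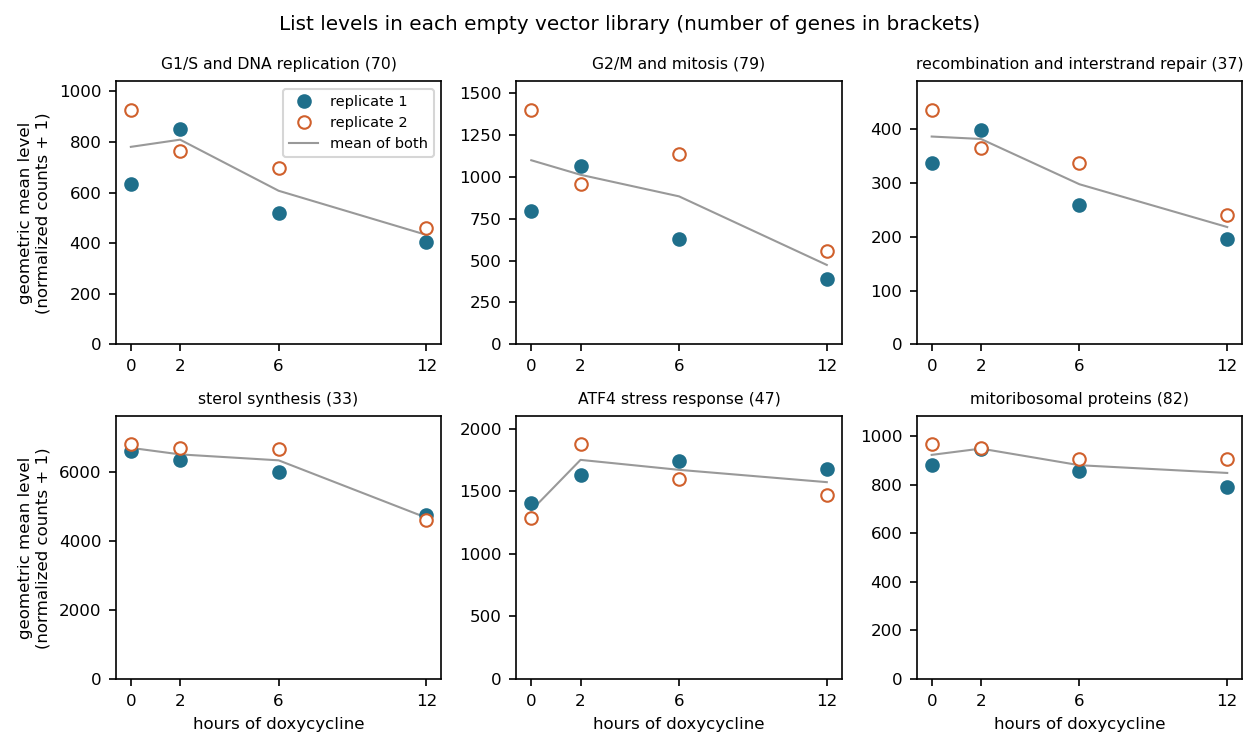
Geometric mean level of 6 gene lists in each EV library under doxycycline. The x axes give hours of doxycycline and the y axes the geometric mean of normalized counts plus 1, from 0. Filled circles are replicate 1, open circles replicate 2 and the grey line joins the means of both. The cell cycle lists have their lowest values at 12 h and replicates that differ at 0 h and 6 h. Sterol synthesis genes are lower at 12 h with replicates close together, and mitoribosomal genes have overlapping values at 0 h and 12 h.

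Sterol and fatty acid synthesis was the other large group of falls, in which the replicates were close. Of 33 measured genes 19 fell (57.6%, against 3.42% of all), 0 rose and 32 had a change below 0, with a median of -0.54. A fit of only the groups compared called 17 of them by limma, with 31 lower at an unadjusted p under 0.05. The geometric mean level was 6615 and 6811 at 0 h, 6024 and 6677 at 6 h and 4761 and 4609 at 12 h. The falls ran through the mevalonate pathway from its start. Acat2, which joins acetyl groups at the first step, stood at 8500 and 9467 at 0 h and at 4755 and 5408 at 12 h (log2 change -0.82, SE 0.12, adjusted p 0.0014). Hmgcs1, the next enzyme, was at 11630 and 12909 and then at 7906 and 7599 (-0.66, adjusted p 0.0315). Mevalonate kinase Mvk was at 3355 and 3046 and then at 1796 and 1952 (-0.77, adjusted p 0.00489). In these 3 enzymes each 12 h value was below each 0 h value.

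Enzymes that make and close the sterol ring also fell. Sqle, which adds oxygen to squalene, stood at 12806 and 13699 at 0 h and at 9026 and 9192 at 12 h (log2 change -0.54, adjusted p 0.0123). Lss, which closes the ring to lanosterol, was at 9573 and 10478 and then at 5474 and 4902 (-0.95, SE 0.17, adjusted p 0.00418). Hsd17b7 was at 2874 and 3120 and then at 1894 and 1758 (-0.71, adjusted p 0.00349). Of the lipid enzymes in the list, Elovl6, which lengthens fatty acids, was at 5540 and 6138 and then at 3992 and 3447 (-0.65, adjusted p 0.00251), and Acly, which makes cytosolic acetyl-CoA, changed by -0.49 (adjusted p 0.00418). Other fatty acid genes of the list did not pass: the change was -0.31 for the synthase Fasn (adjusted p 0.0894), -0.24 for the carboxylase Acaca (adjusted p 0.0901), -0.36 for the desaturase Scd1 (adjusted p 0.0764), -0.31 for Scd2 and -0.32 for Fads1. Insig1, which retains the sterol sensor in the endoplasmic reticulum, fell by 0.71 on the log2 scale (adjusted p 0.0132). The regulators themselves had small changes that did not pass, of -0.10 for Srebf2 (adjusted p 0.651) and 0.17 for Srebf1 (adjusted p 0.326), which was the 1 member above 0. Hmgcs1, Sqle, Insig1, the 2 Srebf genes and the 5 fatty acid genes that did not pass were outside the naming rule and chosen for their place in the pathway. The list's median stayed between -0.56 and -0.51 with any 1 library left out, while its count was 1 (Acat2) without the second 0 h library, 17 without the first, 5 without the first 12 h library and 7 without the second.

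Targets of growth factor signalling, which run through ERK kinases, and of actin and serum response factor held further falls. Of 25 ERK feedback and target genes 6 fell (Etv4, Epha2, Dusp6, Etv5, Plaur and Hmga2), which is 24.0% against 3.42% of all genes, with a median of -0.63. When only the groups compared were fitted, 3 passed by limma, with 13 lower at an unadjusted p under 0.05. Etv4, an ETS factor made under ERK signals, stood at 559 and 585 at 0 h and at 214 and 258 at 12 h (log2 change -1.28, SE 0.24, adjusted p 0.00618). Dusp6, a phosphatase that acts back on ERK, was at 1585 and 1912 and then at 1067 and 907 (-0.82, adjusted p 0.0129). Ccnd1, the cyclin of G1, was at 1724 and 2535 and then at 1134 and 1176, and missed the threshold (-0.86, adjusted p 0.0502, which ran from 0.000788 to 0.598 over the other settings and passed in 7 of 16). The count of 6 was 0 without the second 0 h library (6 at an unadjusted p under 0.05), 9 without the first, and 1 without either 12 h library. Of 29 immediate early factors, Egr1, Ier2 and Srf fell (10.3%, against 3.42% of all genes) and Klf4 rose (3.45%, against 0.749%). Egr1 was at 3313 and 3708 and then at 1701 and 1340 (-1.21, adjusted p 0.00555, and 0.118 without the second 0 h library), and its groups did not overlap. Fos, at 145 and 91 and then at 105 and 61, overlapped between groups (-0.52, adjusted p 0.609), and Myc changed by -0.35 (adjusted p 0.242).

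Of 41 genes of the actin cytoskeleton and its factor SRF, 8 fell (19.5%, against 3.42% of all genes), with a median of -0.25. A fit of only the groups compared called 1 of them lower by limma, with 19 lower at an unadjusted p under 0.05. Acta2, the smooth muscle actin that marks activated fibroblasts, stood at 6729 and 8028 at 0 h and at 2592 and 3433 at 12 h (log2 change -1.30, SE 0.14, adjusted p 4.49e-05), and it passed with any 1 library left out. Actb was at 54188 and 75876 and then at 40653 and 44022 (-0.60, adjusted p 0.0103), which did not pass without the second 0 h library (adjusted p 0.287). That library was the highest of the 4 for both actins, and the list's count without it was 1. It was 14 without the first 0 h library, 1 without the first 12 h library and 5 without the second. Of 29 YAP and TEAD targets, Ccn2 and Ccn1, matrix proteins released after stretch or serum, were the 2 that fell (6.90%, against 3.42% of all genes), and the median was 0.05. Ccn2 was at 539 and 1298 and then at 162 and 233, the largest fall of the named genes (-2.10, SE 0.36, adjusted p 0.00349). Ccn1 was at 3366 and 5576 and then at 1447 and 1033 (-1.82, adjusted p 0.0036). Neither passed without the second 0 h library (adjusted p 0.118 in both), with changes of -1.47 and -1.46. The neuropeptide gene Vip was at 1260 and 1568 and then at 306 and 507 (-1.83, adjusted p 0.000494), and passed with any 1 library left out.

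Genes of mitochondrial translation, the machinery that doxycycline is known to slow, held few calls. Of 82 mitoribosomal protein genes 1 fell, Mrpl20, and 0 rose, or 1.22% against 3.42% of all genes. Mrpl20 stood at 854 and 995 at 0 h and at 610 and 744 at 12 h (log2 change -0.45, SE 0.13, adjusted p 0.0494), just inside the threshold, and at an adjusted p of 0.536 without the second 0 h library. The list's changes ran from -0.45 to 0.18, and 74 of 82 were below 0 (49.6% of all genes), with a median of -0.12 against 0.00 for all genes. Its geometric mean level was 880 and 965 at 0 h and 792 and 904 at 12 h, so the groups overlapped. Without the first 12 h library 43 of 82 were below 0 and the median was -0.01, and without the second 12 h library it was -0.22. Mrpl12, a subunit near the factor-binding site, was at 1263 and 1285 and then at 993 and 1351 (-0.14, adjusted p 0.625).

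Of 16 measured mitochondrial translation factors 0 passed by limma and 0 had an unadjusted p under 0.05, with changes from -0.19 to 0.22. Tufm, the elongation factor that brings tRNAs to the mitoribosome, stood at 2418 and 2579 at 0 h and at 2276 and 2547 at 12 h (log2 change -0.05, adjusted p 0.822). Of 20 mitochondrial aminoacyl-tRNA synthetases and amidotransferase subunits 1 fell, the methionine enzyme Mars2, from 398 and 393 to 262 and 259 (-0.60, adjusted p 0.0293, and 0.257 without the second 0 h library). Lars2 of the same list differed most between replicates, at 9149 and 40469 at 0 h and 23354 and 17868 at 12 h, and was chosen for mention after its values were seen. Of 34 genes of mitochondrial RNA processing and ribosome assembly 0 passed by limma (5 at an unadjusted p under 0.05), with a median of 0.01. Of 17 mitochondrial chaperones and proteases 0 passed (2 at an unadjusted p under 0.05), with a median of -0.08. Mars2 made 5% of the synthetase list called lower, against 3.42% of all genes.

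Of the mRNAs encoded in mitochondrial DNA itself, 0 of the 10 measured passed by limma and 0 had an unadjusted p under 0.05, with changes from -0.28 to 0.09. The oxidase subunit mt-Co1 stood at 285905 and 320424 at 0 h and at 286269 and 344993 at 12 h (log2 change 0.05, adjusted p 0.873), and mt-Cytb of complex III was at 146440 and 164015 and then at 153492 and 177424 (0.09). The share of all normalized counts on mitochondrial genes was 2.25% and 2.45% at 0 h and 2.24% and 2.61% at 12 h. Since the libraries were made from polyadenylated RNA, these shares describe polyadenylated molecules. The nuclear genes of oxidative phosphorylation had 66 of 76 changes below 0, a median of -0.16 and 1 fall (1.32%, against 3.42% of all genes). It was the complex IV subunit Cox7c, at 3299 and 4051 and then at 2502 and 3002 (-0.42, adjusted p 0.0371 by limma). With any 1 library left out its change ran from -0.56 to -0.27. With the first 12 h library left out the median of this list was -0.06 and 0 members passed (2 at an unadjusted p under 0.05), and with the second left out it was -0.24 and 3 passed.

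The ATF4 stress list had 4 rises and 0 falls among 47 measured genes, which is 8.51% against 0.749% of all, and a median of 0.16. Trib3, a pseudokinase induced by ATF4, stood at 82 and 104 at 0 h and at 312 and 259 at 12 h (log2 change 1.61, SE 0.36, adjusted p 0.0151). Atf5, a related factor tied to mitochondrial stress, was at 6728 and 5125 and then at 10745 and 11136 (0.90, SE 0.19, adjusted p 0.0121). Slc3a2, the shared chain of amino acid exchangers, was at 5216 and 4515 and then at 6808 and 6257 (0.43, adjusted p 0.0349). Vldlr, a lipoprotein receptor, was at 32 and 13 and then at 75 and 100 (2.03, adjusted p 0.032). The groups were separate in these 4, which the choice of largest rises required for Trib3 and Vldlr. Atf5 overlaps Il4i1 and Nup62. Atf4 itself was at 7330 and 7244 and then at 7392 and 7100 (-0.01, adjusted p 0.979), and its activity is known to be set by translation. Common amino acid genes of the list did not pass, such as Asns, the asparagine synthetase, at 0.23 (adjusted p 0.58) and Psat1, of serine synthesis, at -0.36 (adjusted p 0.271), both outside the naming rule. The list's median was higher at the shorter times, at 0.31 at 2 h and 0.23 at 6 h, from the same 0 h libraries. The line marker Ddx3y was also higher in those 2 h and 6 h libraries, and whether the 2 are linked was not tested. Its count of 4 rises was 0 without the second 0 h library (4 at an unadjusted p under 0.05) and 0 without the first 12 h library (7 at an unadjusted p under 0.05), 1 without the second 12 h library and 5 without the first 0 h library.

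The remaining lists held few calls. Of 83 cytosolic ribosomal protein genes 4 fell (Rpl30, Rpl35a, Rpl13a and Rps27l), a share of 4.82% near the 3.42% of all genes, and 80 were below 0 with a median of -0.10. Without the first 12 h library the median was 0.00 and 0 passed by limma (6 lower at an unadjusted p under 0.05), without the second 12 h library it was -0.21, and without the second 0 h library it was -0.03 and 0 passed (7 lower at an unadjusted p under 0.05). Pseudogene copies of Rpl30, Rpl35a and Rpl13a may share their reads. Of 61 lysosome and autophagy genes 49 were above 0 with a median of 0.10, against 50.3% of all genes. The 1 rise was Ulk1, the kinase that starts autophagy, from 2916 and 2298 to 3589 and 3349 (0.42, adjusted p 0.0168). Ulk1 was also the 1 rise among 31 FOXO and insulin-signal genes (3.23%, against 0.749% of all genes), with 0 falls. In that second list 24 changes were above 0 and the median was 0.177. By limma 11 of its members were higher at an unadjusted p under 0.05 and 0 lower. Its median ran from 0.174 to 0.195 with any 1 library left out. Glycolysis (29 genes) had 0 calls by limma, with 7 at an unadjusted p under 0.05 and 8 lower calls without the first 0 h library, and the circadian clock (19 genes) had 0, with 4. Of 28 p53 targets Plk3 and Ckap2 fell, and Ckap2 also serves mitosis. Of 19 chemokines and cytokines Ccl17 fell, from 137 and 220 to 37 and 54 (-1.93, adjusted p 0.0198), and of 24 interferon-stimulated genes Ifit2 fell, from 946 and 1013 to 676 and 589 (-0.63, adjusted p 0.00892), while 20 of the 24 were above 0 and the list's median was 0.20. Of 24 TGF-beta responsive genes Bambi and Id1 fell, and of 33 growth arrest genes C3 rose and Gas2l3 fell. Shares called lower were 8.33% for TGF-beta, 7.14% for p53, 5.26% for chemokines and 4.17% for interferon lists, against 3.42% of all genes. The growth arrest list had 3.03% called in each direction. In the lysosome list 1.64% rose, against 0.749% of all genes.

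**Figure D4:**
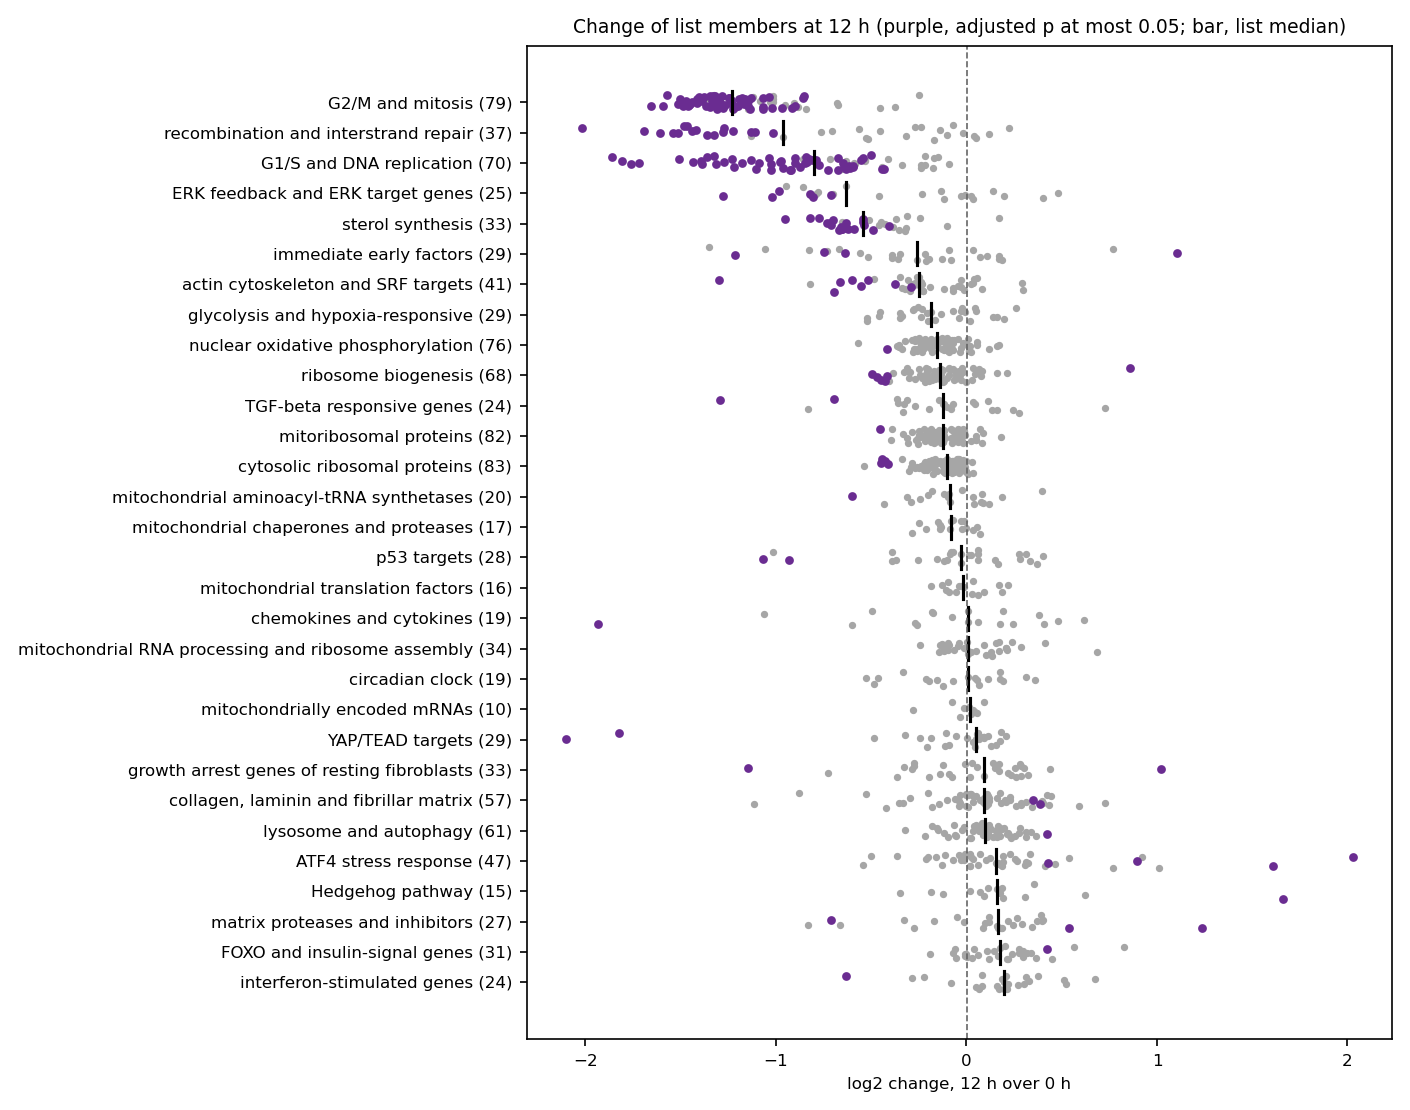
Fitted log2 change from 0 h to 12 h for the members of each of the 30 lists, ordered by median, with the number measured in brackets. Each point is a gene, purple where its adjusted p was at most 0.05. The black bar is the list's median and the dashed line the median of all genes. The 3 cell cycle lists, the ERK feedback and target genes and sterol synthesis lie to the left, and the mitochondrial lists lie near the dashed line.

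The later interval, from 6 h to 12 h, does not use the 0 h libraries but shares the 12 h libraries with the comparison above. It had 5 calls, all lower (0.0446% of genes): Acta2, Acat2, Relt, Elovl6 and Eme1, with 0 higher. At an unadjusted p under 0.05 there were 1337 genes, of which 393 were higher. Acta2 stood at 6702 and 9315 at 6 h and at 2592 and 3433 at 12 h (log2 change -1.41, SE 0.14, adjusted p 5.47e-05). Acat2 was at 8000 and 9330 and then at 4755 and 5408 (-0.77, adjusted p 0.0339), and Elovl6 at 5576 and 5850 and then at 3992 and 3447 (-0.62, adjusted p 0.0459). Relt, a receptor of the TNF family, was at 130 and 156 and then at 73 and 48 (-1.25, adjusted p 0.0459). Eme1 was at 88 and 170 and then at 43 and 35 (-1.63, adjusted p 0.0492). In these 5 both 12 h values were below both 6 h values. Without the first 6 h library 144 genes passed, without the second 1, and without the first and the second 12 h library 7 and 12. In this interval all 33 sterol and fatty acid genes had a change below 0, with a median of -0.42, and so had all 79 mitosis genes, with a median of -0.92, of which 0 passed by limma and 74 had an unadjusted p under 0.05. The median of all genes was -0.01.

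At 6 h against 0 h, 15 genes passed and all were higher (0.134% of genes), with 0 lower (274 at an unadjusted p under 0.05 by limma), and this comparison shares the 0 h libraries. Rises that stood at similar values at both times included Adgrg1, at 4.74 at 6 h and 4.77 at 12 h, Sh3rf1, at 1.24 and 1.01, Etl4, at 1.31 and 1.37, and Gli2, at 1.45 and 1.66. The median of the mitosis list was -0.34 at 6 h and -1.23 at 12 h, and that of sterol synthesis was -0.09 and -0.54.

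The E2F1 line had its own 0 h and 12 h libraries and received the same dose of drug. The change at 12 h differed between the lines in 5665 genes (50.5%), higher in the E2F1 line in 3059 (27.3%) and lower in 2606 (23.3%), a balance that turned to 2659 and 3457 after quantile normalization, where the median difference over all genes was -0.13 in place of -0.02. Of the 383 genes that fell in the EV line, 293 were called higher in the E2F1 line and 45 lower, where 31.8% of all genes were called higher and 29.7% lower. Of the 84 rises, 34 were called lower in the E2F1 line and 27 higher. The cell cycle lists ran in opposite directions, with the mitosis list at a median of 2.24 in the E2F1 line and a difference between lines that passed for 79 of 79. Plk1 went from 1050 and 1109 to 5243 and 5459 there, and Cdc6 from 609 and 538 to 1602 and 1770. The sterol list had a median of -0.43 in the E2F1 line, with 17 falls and 3 rises. The difference between lines passed for 9 of its 33 genes, 8 of them higher in the E2F1 line, among them Acat2, which was at 12236 and 9364 and then at 10897 and 10713 in the E2F1 line. Of the mitoribosomal genes 32 were called higher and 4 lower in the E2F1 line, and the difference passed for 31 of 82. Among the rises shared by both lines, Klf4 changed by 1.15 in the E2F1 line and 1.11 in the EV line, and Gli2 by 1.39 and 1.66, with differences that did not pass (adjusted p 0.899 and 0.431).

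**Figure D5:**
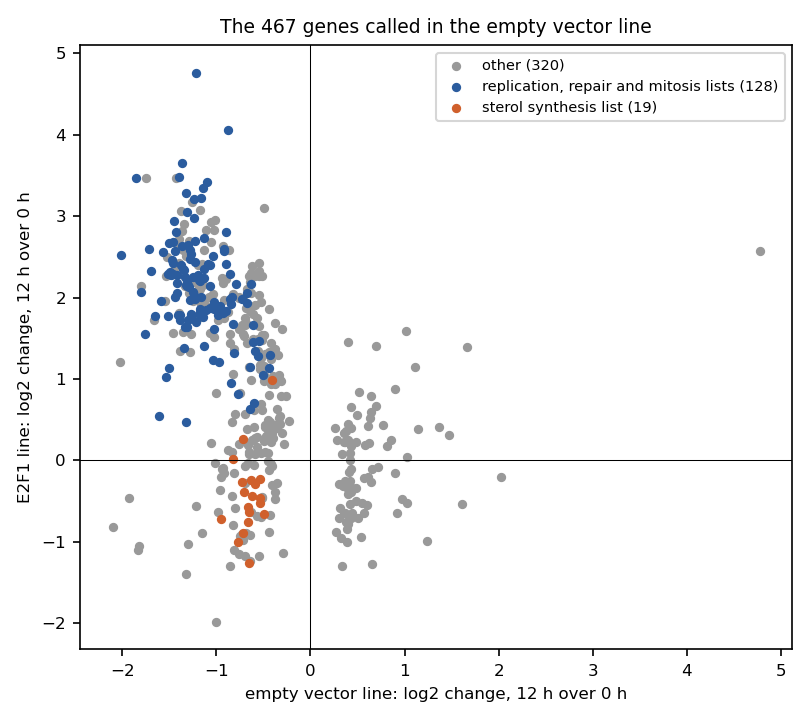
Change at 12 h of doxycycline in the EV line (x axis) and in the E2F1 line (y axis), both as log2 over the line's own 0 h libraries, for the 467 genes called in the EV line. Blue points are 128 genes of the replication, repair and mitosis lists, orange points 19 genes of sterol synthesis and grey points the other 320. The blue points lie below 0 on the x axis and above 0 on the y axis, and most orange points lie below 0 on both.

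The EV line was also kept for 12 h in 10% serum without doxycycline after the same starvation, and these libraries were set against the same 0 h libraries, where limma called 7367 of 11208 genes (65.7%). Adgrg1 was at 410 and 443 normalized counts there, higher than at 0 h (log2 change 1.65, adjusted p 2.52e-06) and far below its values under the drug. Ddx51 was at 2442 and 2379 and Noc4l at 2462 and 2320, also above 0 h, with changes of 0.55 and 0.88. Gli2, at 366 and 399, and Klf4, at 620 and 608, were lower than at 0 h, by -0.89 and -0.91, while under the drug both rose. C3, at 1285 and 937, and Mmp9, at 592 and 494, were lower in serum as well (changes of -2.06 and -1.34). Acta2, at 51992 and 49641, and Ccn2, at 7271 and 6262, were far above 0 h in serum (changes of 2.79 and 3.01), and both fell under the drug. Of the 33 sterol and fatty acid genes 28 were called lower in serum (29.7% of all genes), with a median of -0.56, and Lss was at 2583 and 3947. Of the 82 mitoribosomal genes 65 were called higher in serum (36% of all genes), with a median of 0.59, and of the 79 mitosis genes 43 were, with a median of 0.74.

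The authors' deposited table for this comparison lists 4 genes. The smallest log2 fold change in size among them is -2.05. The rule that chose them may differ from the threshold used here, so their number cannot be set against the calls above. In the authors' deposited table Adgrg1 has a log2 fold change of 4.77 (adjusted p 9.95e-146), Ccn2 of -2.12 (adjusted p 9.02e-14) and Eme1 of -2.05 (adjusted p 0.00476). The fourth gene of the authors' deposited table, Atg9b at -2.66 (adjusted p 0.0215), has no row in the table of normalized counts and was not analysed here.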

How the data were processed

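Polyadenylated RNA of NIH/3T3 cells was sequenced as 150 bp paired reads, per the labels' protocols. The main table holds a score per gene and library that the authors scaled and rounded and whose name calls it normalized counts. The submitters' processing notes name FastQC, Trimmomatic, HISAT2, featureCounts, DESeq2 and mm10. Their roles, versions, the annotation release, the use of strand and the scaling are not given in the sources used here. A further table holds log2 fold changes as the authors deposited them, and it holds the adjusted p-value of each gene as the authors deposited it. Rounded scaled values allow no count test, so log2(value + 1) was fitted with limma 3.58.1 in R 4.3.3. The 22 libraries entered 1 fit with 11 group means (11 residual degrees of freedom, empirical Bayes with a mean-variance trend), and p-values were Benjamini-Hochberg adjusted over 11208 genes with a threshold of 0.05. The filter (a value of at least 10 in 2 libraries) removed 0 genes. The code was tested on simulated data. The members and the 30 gene lists were chosen with earlier results of these data known. Named genes were the 12 largest rises and 12 largest falls past the threshold with separate groups and a higher group mean of 50 or more, up to 6 members of smallest p from each list, or 2 of largest mean where none passed, and a fixed set of 12; the values of other genes were seen before they were chosen. The genes called without each library, the CCAAT motif and 2 settings with a replicate block were added after the data were seen. List counts use no test of the list, only counts and medians. Positions come from GENCODE M21 on GRCm38, in which 10977 of 11208 identifiers occurred with the same version, and promoters from RefSeq on GRCm38.p6, matched by symbol for 8609 genes. The settings tried were a pseudocount of 8, no filter, a mean of at least 500, quantile normalization, equal totals, only the groups compared, a replicate block, the 2 h EV libraries left out, no trend, at least a 2-fold change and each library left out. Tables and plots were made in Python 3.11.15 with pandas 2.3.3, numpy 2.4.6 and matplotlib 3.10.9. Some items are not reported here.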

Additional observations from a re-analysis of the deposited data

Results flagged for a closer look

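Of 35 genes named for their largest change or from the fixed set, 24 had a 12 h change that differed between the E2F1 and EV lines by limma's interaction test (largest adjusted p 0.042), as had 50.5% of all genes. Most of the 35 were chosen for a large change in the same EV libraries that enter the difference, so the choice itself favours a difference, and the count is a description. Each value is the log2 change in the E2F1 line minus that in the EV line, and their cause was not tested.

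The change was higher in the E2F1 line for 14 of the 24. The difference was 3.32 for Cdc6, 3.76 for Cdk1, 3.87 for Dscc1, 4.02 for Exo1, 4.32 for Asf1b, 4.54 for Eme1, 5.01 for Rrm2, 5.22 for Esco2 and 5.32 for E2f2. It was 3.95 for 2810408I11Rik, which overlaps Ccnyl1. The mouse gene E2f1 differed by 0.88, and the labels do not say whether reads of that line's E2F1 construct are counted with it. Smaller differences in this direction were 1.29 for Ccn2, 0.62 for Mrpl12 and 0.58 for Sh3rf1, which rose in both lines (1.60 in the E2F1 line and 1.01 in the EV line).

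The change was lower in the E2F1 line for 10. The choice of genes for a large EV rise favours such a difference, as the choice for a large EV fall does for genes given above. The difference was -2.24 for Vldlr, -2.22 for Mmp9, -2.20 for Adgrg1, -2.15 for Trib3, -1.54 for C3, -1.16 for Fst, -0.98 for Ddx51, -0.96 for Etl4 and -0.76 for Gstm5. Mmp9 changed by -0.98 in the E2F1 line and by 1.24 in the EV line, and C3 by -0.52 and 1.02. Myc differed by -0.62, with -0.97 in the E2F1 line and -0.35 in the EV line.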

How the results depend on the processing

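The 467 calls at 12 h against 0 h stayed between 415 and 517 with a pseudocount of 8, a mean of at least 500, quantile normalization, equal totals, the 2 h EV libraries left out or the replicate block (517). The setting with no filter repeats the main fit, because the filter removed 0 genes. Its calls were therefore fixed in advance, also those it adds for the 111 named genes below. They were 77 with only the groups compared, 295 with no mean-variance trend, 170 at 2-fold and 26 to 803 without each library in turn. The 5 calls from 6 h to 12 h were 3 with a pseudocount of 8, 3 at a mean of at least 500, 2 with equal totals, 0 with only the groups compared (limma), 1 without the 2 h EV libraries, 1 with no trend, 3 at 2-fold and 1 to 144 without each library. The 5665 differences between lines were 2119 at 2-fold and 4868 to 6116 otherwise. Same-numbered EV libraries deviated together at 0 h and 12 h (r = 0.43 over 8730 genes), 0 h and 6 h (0.59) and 6 h and 12 h (0.41), but not those of 2 h (-0.08, -0.23 and -0.15), and the labels do not say that numbers pair cultures. The replicate block gave 12 calls from 6 h to 12 h and 5791 between lines. Added after the data were seen, a replicate block within each line gave 530, 14 and 5744 calls, and a block over only the EV 0, 6 and 12 h libraries gave 1031 (370 higher) and 445 (121 higher), with 30 sterol and 19 actin genes lower and 10 collagen list genes higher at 12 h against 0 h. Over 111 named genes, 1760 alternative values held 1441 with the same call, 289 that no longer passed, 13 that newly passed (7 of them Ccnd1) and 17 of opposite sign, none of them for a gene called at 12 h. The latter were Col1a2 (0.06 with quantile normalization, 0.01 with equal totals, 0.08 and 0.11 with a library left out), mt-Co1 (-0.06 with quantile normalization, -0.08 and -0.03 with a library left out), Atf4 (0.00 with equal totals, 0.02 and 0.00 with a library left out), and, with a library left out, Hlf (-0.18 and -0.32), Lrpprc, Hsd17b10, Mrpl12, mt-Cytb and Tufm. Without each library in turn the changes ran from -0.11 to 0.11 for Col1a2, -0.08 to 0.19 for mt-Co1, -0.04 to 0.02 for Atf4, -0.32 to 0.45 for Hlf, -0.22 to 0.03 for Lrpprc, -0.24 to 0.10 for Hsd17b10, -0.36 to 0.08 for Mrpl12, -0.01 to 0.20 for mt-Cytb and -0.13 to 0.03 for Tufm. The cause of these moves was not tested. With 2 libraries a group and unknown read depth, small changes of low genes could not be resolved.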

Other observations

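Among called genes outside the 30 lists, 4 falls and 7 rises were picked by hand after their values were seen, so they stand for no group. Acsl3, which activates fatty acids, stood at 2462 and 2694 normalized counts at 0 h and at 1666 and 1565 at 12 h (log2 change -0.67, adjusted p 0.00376). Tmem97, a sterol-regulated membrane protein, was at 1334 and 1429 and then at 835 and 715 (-0.84, adjusted p 0.00418). Aacs, which makes acetoacetyl-CoA, was at 8291 and 8637 and then at 5632 and 5216 (-0.64), and Fabp5, a fatty acid carrier, was at 2633 and 2514 and then at 1678 and 1695 (-0.61). In these 4 genes the replicates of each group lay close together and the groups were separate.

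Of the rises, the nucleoside transporter Slc29a3 stood at 1724 and 1702 at 0 h and at 3015 and 3014 at 12 h (0.82, adjusted p 0.000132). The kinase Map4k3 was at 2598 and 2335 and then at 4511 and 3939 (0.77, adjusted p 0.00032), and the kinase Src was at 2968 and 3075 and then at 4817 and 4669 (0.65, adjusted p 0.00158). The matrix protein Spon2 was at 6202 and 7587 and then at 10917 and 15464 (0.92, adjusted p 0.0141). Angptl4, which inhibits lipoprotein lipase, was at 3236 and 3217 and then at 5172 and 5474 (0.72, adjusted p 0.0287), and the adhesion protein Vcam1 was at 5862 and 4747 and then at 7850 and 7625 (0.55). Deptor, which binds the mTOR kinase, was at 394 and 257 and then at 663 and 589 (0.97).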
